A study of Mus musculus with 34 samples.

Results

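The respiratory chain was examined through the 2 sets of genes that encode it. The table of 16389 genes held 92 genes whose symbols matched the rule used here: the 13 protein genes of mitochondrial DNA, and 79 nuclear genes named as subunits of complex I (36), complex II (3), complex III (7), complex IV (15, with Ndufa4 counted there) or complex V (18). Each of the 92 reached 1 FPKM (fragments mapped to a gene, scaled by its length and by the depth of the library) in at least 3 libraries, and 91 were tested; Atp5c1-ps, annotated as a pseudogene, was left out and read between 0.7 and 2.2 FPKM. RNA had been sequenced from the cortex, the hippocampus and the thalamus (dissected together with the striatum) of male C57BL/6 mice. WT CON mice were neither irradiated nor transplanted and gave 3 cortex, 4 hippocampus and 4 thalamus libraries. GFP-BM CON mice had received whole-body irradiation at 1000 cGy when 4 months old, followed by bone marrow from CAG-EGFP donors, in which a ubiquitous promoter drives the green protein (4, 4 and 3 libraries). GFP-BM REPOP mice had the same irradiation and graft and then, 3.5 months later, 14 days of chow with 600 ppm PLX3397, an inhibitor of the receptor CSF1R that removes microglia, and about 6 months of control diet (4 libraries in each region). Both GFP-BM groups therefore differed from WT CON in irradiation and in graft at once, and these cannot be told apart. Each library came from 1 animal and each animal gave up to 3 libraries.

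Oxidative phosphorylation joins 5 protein complexes of the inner mitochondrial membrane. Complexes I to IV pass electrons from NADH or succinate to oxygen, and complex V, the ATP synthase, uses the proton gradient that I, III and IV build. Complex II is encoded by nuclear genes alone, whereas the other complexes combine nuclear subunits, imported after translation in the cytosol, with core subunits translated inside the organelle. Mitochondrial DNA is transcribed as long polycistronic precursors from both strands, which are cut into single messengers mostly at the transfer RNAs between the genes, and neurons depend heavily on the pathway to restore ion gradients.

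The mitochondrial genes lie close together, and some reading frames overlap, so that reads in the shared bases cannot be given to 1 gene. The stretches below are from the mm10 mitochondrial chromosome (GENCODE vM21 models on the same build), written 5′ to 3′ on the plus strand, and are shown because the genes with the largest regional differences meet in them. ATP8 (chrM:7766-7969), a small subunit of complex V, is given whole, with the 43 bases that it shares with ATP6 in capitals. The next stretch (chrM:10137-10203) holds the end of ND4L and the start of ND4, complex I subunits, with the 7 shared bases in capitals. The last (chrM:13522-13595) holds the end of ND5 and the end of ND6, which is read from the opposite strand, with the 14 shared bases in capitals. All 3 stretches are rich in A and T.
ATP8: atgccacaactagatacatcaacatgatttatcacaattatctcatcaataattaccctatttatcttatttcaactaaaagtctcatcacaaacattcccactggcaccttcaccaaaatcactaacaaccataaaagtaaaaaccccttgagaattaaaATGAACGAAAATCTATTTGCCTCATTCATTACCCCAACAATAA
ND4L and ND4: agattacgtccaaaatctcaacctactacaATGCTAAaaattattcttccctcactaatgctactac
ND5 and ND6: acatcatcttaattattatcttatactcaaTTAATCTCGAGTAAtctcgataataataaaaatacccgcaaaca

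Depth and tissue were checked first. The FPKM values gave back whole reads, with totals between 17085018 and 26010509 a library (median 21367227). The libraries differed in how far reads from GC-rich genes were favoured over reads from GC-poor ones. The GC measure used below is the median log2 level of the tenth of tested genes with the highest GC content (at least 58.2%) minus that of the tenth with the lowest (at most 41.6%), 1379 genes each, with no respiratory chain gene among them. It lay between 0.79 and 1.26 in the WT CON cortex, between 1.82 and 3.43 in the WT CON hippocampus, and at 1.11, 3.68, 2.19 and 1.46 in the WT CON thalamus, where replicate 2 stood apart. Summed FPKM of 8 cortical markers was 327 to 346 in the WT CON cortex and at most 116 in the other WT CON libraries. The labelled hippocampus was less clear, since 8 hippocampal markers summed to 80.3 to 169 FPKM there and to 105 to 112 in the cortex, and 8 thalamic markers to 70.1 to 286 there and to 175 to 346 in the thalamus. Some hippocampal libraries stood apart in markers of other regions. Striatal markers summed to 63.7 to 498 FPKM in the WT CON, 104 to 147 in the GFP-BM CON and 74.8 to 1490 FPKM in the GFP-BM REPOP hippocampus, where replicate 4 (1490 FPKM) was the highest of all libraries. In replicate 1 of that group the cortical markers summed to 283 FPKM, above the lowest cortical library (271 FPKM), and the hippocampal ones to 78.5 FPKM, the lowest of the 12 hippocampal libraries. Summed FPKM of 10 neuronal markers was 2752 to 2883 in the WT CON cortex and 1388 to 2466 in the WT CON hippocampus, without overlap. The sums of astrocyte, oligodendrocyte, microglia and endothelial markers overlapped between these groups. In bulk tissue, fewer cells of a type and less RNA per cell cannot be told apart.

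Mitochondrially encoded messengers took between 3.26% and 6.88% of the recovered reads, which are those counted for genes of the table. In the WT CON cortex they took 6.56%, 5.20% and 6.32% of the reads of the 3 libraries (6.03% ± 0.72, SD, n = 3). In the WT CON hippocampus the shares were 3.55%, 3.74%, 3.86% and 3.26% (3.60% ± 0.26, n = 4), so that every hippocampal library lay under every cortical one. The WT CON thalamus had 5.83%, 3.61%, 5.29% and 5.57% (5.07% ± 1.00, n = 4) and overlapped both. The GFP-BM CON hippocampus, at 5.36%, 5.42%, 6.38% and 4.43%, lay wholly above the WT CON hippocampus, and the GFP-BM REPOP hippocampus, at 4.33%, 5.62%, 3.96% and 5.41%, did so too. In the thalamus the GFP-BM CON libraries had 6.45%, 6.46% and 6.39%, all above WT CON, while the GFP-BM REPOP libraries had 6.07%, 6.46%, 6.26% and 5.59% and overlapped it. The cortex ran from 5.77% to 6.88% in GFP-BM CON and from 5.22% to 6.34% in GFP-BM REPOP, both overlapping WT CON.

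The 79 nuclear genes together took far less, between 0.80% and 1.38% of the reads, and their order was another one. The WT CON cortex gave 0.885% ± 0.059 (SD, n = 3), the WT CON hippocampus 1.07% ± 0.11 (n = 4) and the WT CON thalamus 1.14% ± 0.18 (n = 4). The region with the lowest mitochondrial share was therefore not the one with the lowest nuclear share. On the log2 FPKM scale the mean level of the 13 mitochondrial genes exceeded that of the nuclear ones by 5.36 ± 0.34 in the WT CON cortex, by 4.56 ± 0.66 in the WT CON thalamus and by 3.81 ± 0.36 in the WT CON hippocampus.

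**Figure D1:**
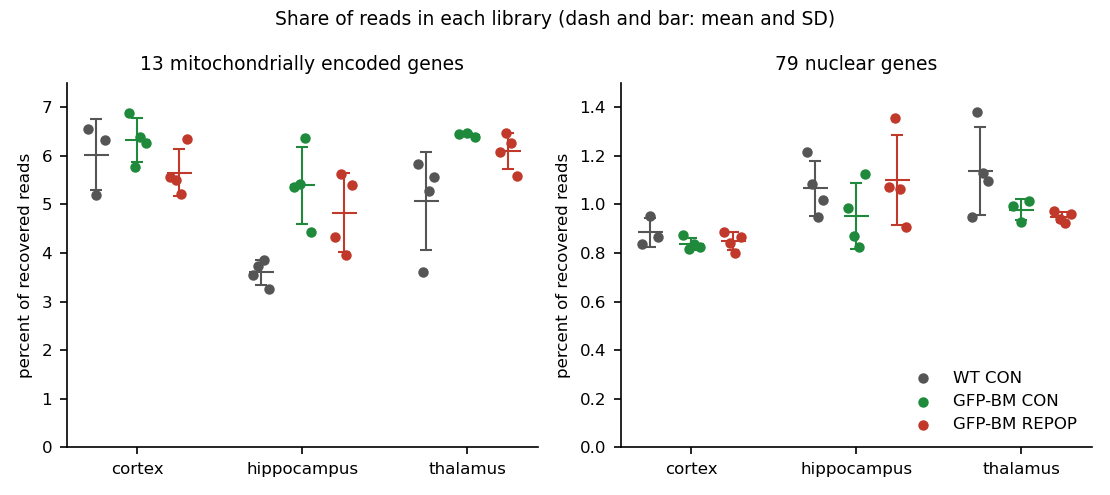
Share of recovered reads, in percent, taken by the 13 mitochondrially encoded genes (left) and the 79 nuclear respiratory chain genes (right). Each of 34 libraries is shown by region and treatment, with bars at the group mean and SD. The WT CON hippocampus (3.26% to 3.86%) lies under every cortical library in the left panel and not in the right one.

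COX1, the catalytic core of complex IV, was the most abundant messenger of the 13 per kilobase, between 9688 and 15292 FPKM over the 34 libraries. COX3, a core subunit next to it, read 6226 to 9300 FPKM. Both varied little, with an SD of 0.14 and 0.15 on the log2 scale over all libraries. COX2 (3415 to 11290 FPKM), which accepts electrons from cytochrome c, and ATP6 (2376 to 10947 FPKM), which forms part of the proton path of complex V, covered a wider range. CYTB, the mitochondrial subunit of complex III, read 1833 to 5725 FPKM, ND1 1811 to 5701, ND4 906 to 4716, ND4L 869 to 4586 and ND3 629 to 2684 FPKM. ND5, the distal proton-pumping subunit of complex I (210.1 to 2291 FPKM), and ND6, the sole protein gene of the light-strand transcript (347 to 3179 FPKM), varied more over the 34 libraries than any other mitochondrial gene, with SDs of 1.02 and 0.95 on the log2 scale. COX1 over ND5, both in FPKM, was 9.21 ± 2.14 (SD, n = 3) in the WT CON cortex, 36.6 ± 11.0 (n = 4) in the hippocampus and 16.5 ± 6.88 (n = 4) in the thalamus. Of the summed FPKM of the 13 genes, COX1 made up 20.5% in the WT CON cortex and 31.6% in the hippocampus, and ND5 2.28% and 0.914%.

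Among the nuclear genes, Cox8a (521 to 1056 FPKM) and Cox6a1 (536 to 1124 FPKM) of complex IV and Atp5b (551 to 1037 FPKM), the catalytic beta subunit of complex V, were the most abundant. The least variable of all members was Ndufs1, the largest iron-sulfur subunit of complex I, which stayed between 40.8 and 52.1 FPKM. Sdha, the flavin-carrying subunit of complex II, read 125 to 197 FPKM and Uqcrc1, a core subunit of complex III, 121 to 227 FPKM. Cox7a2, at 2.0 to 4.4 FPKM, and the other genes with near-identical copies in the genome are uncertain, because the counting could split or drop their reads. The same holds for the mitochondrial genes, which have copies of fragments in nuclear DNA.

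The regions were compared in WT CON mice, which carry no treatment, with limma-trend on log2(FPKM + 0.1), two-sided and adjusted over the 14710 genes tested by the Benjamini-Hochberg method. Between cortex and hippocampus, 10 of 13 mitochondrial genes were higher in the cortex and none was lower at an adjusted p under 0.05, where 11.1% of all genes tested were called in either direction. ND5 read 1754, 1035 and 1712 FPKM in the cortex and 210.1, 280.1, 437 and 315 FPKM in the hippocampus. The lowest cortical library held more than the highest hippocampal one, and the difference was 4.86-fold (log2 2.28, SE 0.38, adjusted p = 0.014). ND6 read 2345, 1434 and 2319 FPKM against 347, 387, 622 and 460.3 FPKM, a 4.48-fold difference (log2 2.16, SE 0.33, adjusted p = 0.011). ATP8, which braces the stator of complex V, read 528, 359.6 and 525 FPKM against 79.4, 107, 164 and 111 FPKM, a 4.16-fold difference (log2 2.06, SE 0.28, adjusted p = 0.0073). ATP8 is the gene shown whole above, and ND5 and ND6 are those whose shared ends are shown. In the main fit these 3 genes were thus 4- to 5-fold more abundant in the cortical libraries, with no overlap. Over 23 alternative fits the log2 difference ran from 1.05 to 2.53 for ND5 and from 0.54 to 2.40 for ND6. For ATP8 it ran from 0.04 to 2.24, so that its size depends on the processing. ND2, a membrane subunit of complex I, read 2999, 2093 and 2979 FPKM against 794, 842, 983 and 783 FPKM (log2 1.65, SE 0.21, adjusted p = 0.0073).

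The remaining called genes were ND4L (log2 1.79), ND4 (1.74), ATP6 (1.74), COX2 (1.18), ND1 (1.13) and CYTB (1.12), with adjusted p between 0.011 and 0.024. ND3 (log2 0.76, SE 0.32, adjusted p = 0.13), COX1 (log2 0.32, SE 0.23, adjusted p = 0.35) and COX3 (log2 0.22, SE 0.21, adjusted p = 0.46) did not pass. COX1 read 14191, 12088 and 13452 FPKM in the cortex and 10611, 10517, 10408 and 10863 FPKM in the hippocampus, so that its groups did not overlap although the fitted difference was small. COX3 read 8759, 7492 and 8084 FPKM against 7927, 6835, 6479.9 and 6617 FPKM, which overlapped. In 12 of 13 genes the cortical libraries lay wholly above the hippocampal ones, which was so for 23.2% of all genes tested. The fitted differences ran from 1.17-fold (COX3) to 4.86-fold (ND5), and the differences between genes were not tested. Across the 13 genes the size of the difference had a Pearson r of -0.40 with GC content and -0.18 with log2 length; these genes share libraries and precursors and are not independent. Leaving out WT CON cortex replicate 1 reduced the 10 calls to 1 and leaving out WT CON cortex replicate 3 to 0, which leaves 2 cortical libraries. Removing the part of each library's values that follows GC content and length left 3 calls, with ND5 (log2 1.05) and ND4L (0.77) higher and ND3 (-1.03) lower, and moved the median of the 13 from 1.65 to 0.087.

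**Figure D2:**
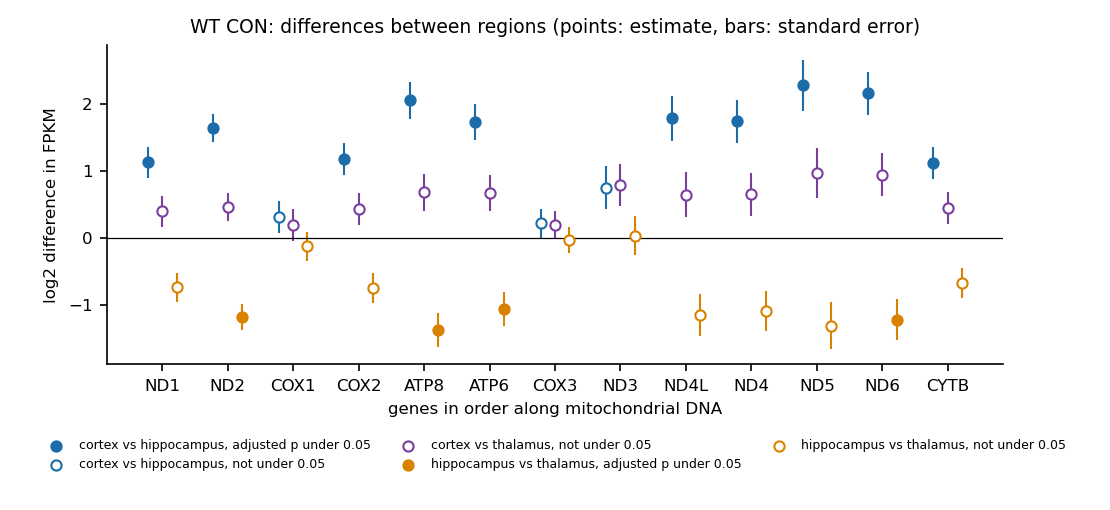
Difference between regions of WT CON mice for the 13 mitochondrially encoded genes, in their order on mitochondrial DNA (log2 difference ± SE, filled where adjusted p is under 0.05). ND5 and ND6 (2.28 and 2.16) stand highest for cortex against hippocampus, and COX1 and COX3 (0.32 and 0.22) lie near 0 beside them.

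The nuclear genes did not follow. Between the same cortex and hippocampus libraries 73 of 78 had a lower fitted level in the cortex, with a median log2 difference of -0.17, and 1 passed the test. Atp5g2, which encodes the c subunit of the ATP synthase ring, read 39.1, 44.8 and 37.1 FPKM in the cortex and 61.2, 58.4, 53.5 and 59.7 FPKM in the hippocampus (log2 -0.53, SE 0.13, adjusted p = 0.032). The groups did not overlap, but this call was lost without any 1 of the 7 libraries named at the end of this comparison. Cox6a2, the heart and muscle form of a complex IV subunit that some neurons also express, read 10.2, 17.5 and 14.7 FPKM against 7.19, 3.24, 6.97 and 10.2 FPKM, just without overlap, and did not pass (log2 1.10, SE 0.34, adjusted p = 0.061). By complex, 35 of 36 genes of complex I, 3 of 3 of complex II, 7 of 7 of complex III, 12 of 15 of complex IV and 16 of 17 of complex V were on the lower side in the cortex. Of the 78, 12 lay wholly lower and 3 wholly higher in the cortex, where 19.4% of all genes tested lay wholly lower and 23.2% wholly higher. The called nuclear count went from 1 to 4 without WT CON thalamus replicate 2, and to 0 without WT CON cortex replicate 1, 2 or 3, WT CON hippocampus replicate 1, 2 or 4, or WT CON thalamus replicate 3.

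The promoter of Atp5g2 is shown as the nuclear counterpart to the mitochondrial stretches, 250 bases upstream of its RefSeq start on the minus strand (GRCm38.p6, chr15:102671048-102671297), with the 10 bases in capitals that hold GCGCATGC, a core of the motif of NRF1 (nuclear respiratory factor 1), once on each strand in overlap.
Atp5g2 promoter: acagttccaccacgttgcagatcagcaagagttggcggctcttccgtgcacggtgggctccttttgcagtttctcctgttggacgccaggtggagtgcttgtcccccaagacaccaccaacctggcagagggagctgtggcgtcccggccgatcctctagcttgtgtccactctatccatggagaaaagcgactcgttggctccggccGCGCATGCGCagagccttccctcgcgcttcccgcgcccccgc
Promoters of 300 bases were found for 66 of 79 nuclear genes in the RefSeq table. GCGCATGC on either strand was in 9 of them (13.6%) and in 2.80% of all 27025 promoters. CCGGAAG, a core of the ETS motif that GABPA binds, was in 13 (19.7%) against 9.12%, AAGATGGC, of YY1, in 9 (13.6%) against 2.88%, and AAGGTCA, of the ERR family, in 7 (10.6%) against 4.66%. These letters are a description of the windows and show no binding.

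Between hippocampus and thalamus of WT CON mice 4 of 13 mitochondrial genes were lower in the hippocampus, where 4.10% of all genes tested were called. ND2 read 794, 842, 983 and 783 FPKM in the hippocampus and 2414, 1431, 1841 and 2108 FPKM in the thalamus (log2 -1.18, SE 0.19, adjusted p = 0.015). The other 3 were ATP8 (log2 -1.37, adjusted p = 0.022), ATP6 (-1.06, adjusted p = 0.044) and ND6 (-1.21, adjusted p = 0.0498). ND5 had a fitted difference as large (log2 -1.31, SE 0.35) and did not pass (adjusted p = 0.063); WT CON thalamus replicate 2, at 383 FPKM, lay within the hippocampal range of 210.1 to 437 FPKM. The median of the 13 was -1.06 and that of the nuclear genes -0.06. In 4 of 13 genes the hippocampal libraries lay wholly lower, as in 4.19% of all genes. No nuclear gene was called by limma-trend or by voom on the recovered reads, and 1 had an unadjusted p under 0.05. Throughout, counts from fits with a library left out stand without the share of all genes called in the same fit. They show how far calls rest on single libraries and are no result about the members. Without WT CON thalamus replicate 2, 10 mitochondrial and 2 nuclear genes were called. Without any other single WT CON library, in any region, the mitochondrial count fell to 1 or 2, and it was 2 when animal entered the fit as a block.

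Between cortex and thalamus no member was called by limma-trend or by voom, where 6.40% of all genes tested were. All 13 mitochondrial genes had a higher fitted level in the cortex (median log2 0.65, 6 with an unadjusted p under 0.05, smallest adjusted p = 0.10), but the libraries of the regions overlapped for each of them. Of the 78 nuclear genes, 71 had a lower fitted level in the cortex (median -0.25, 18 with an unadjusted p under 0.05). In 18 of them the cortical libraries lay wholly lower, as in 18.5% of all genes. Ndufb5, an accessory subunit of complex I, came nearest to the threshold (log2 -0.38, SE 0.12, adjusted p = 0.089). Without WT CON thalamus replicate 1, the library of that group with the lowest GC measure, 1 mitochondrial and 2 nuclear genes were called.

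The mitochondrial level followed the GC measure of the library. Over the 34 libraries, which share animals and come from the same reads as the measure, the mean log2 level of mitochondrial minus nuclear genes had a Pearson r of -0.959 with it, and -0.794 in the cortex (11 libraries), -0.951 in the hippocampus (12) and -0.990 in the thalamus (11). Each of the 13 mitochondrial genes had a negative r (-0.95 to -0.26, median -0.91), against 3 of 78 nuclear genes (-0.88 for Atp5s to 0.90 for Atp5a1, median 0.66). The mitochondrial messengers are GC-poor, at 31.9% to 41.1% (median 37.1%), whereas the nuclear ones have a median of 50.2%, close to the 50.1% of all 13875 tested genes with a sequence. Nuclear members are also short, with a median of 1025.5 bases against 3433 for all genes. COX1 and COX3 stood apart from the other 11, a grouping made after their values were seen. Their mean log2 level had an r of -0.384 with the GC measure, that of the other 11 an r of -0.936, and the other 11 relative to COX1 and COX3 an r of -0.918. The length measure, built in the same way from the tenth of genes with the greatest length and the tenth with the smallest, moved as well. Mitochondrial minus nuclear level had an r of 0.949 with it over the 34 libraries, and cortical, hippocampal and thalamic libraries alone had 0.685, 0.906 and 0.987. The mean nuclear level had an r of 0.719 with the GC measure and of -0.869 with the length measure. The part of library GC and length preference in the regional differences was not tested beyond the corrected values given here.

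**Figure D3:**
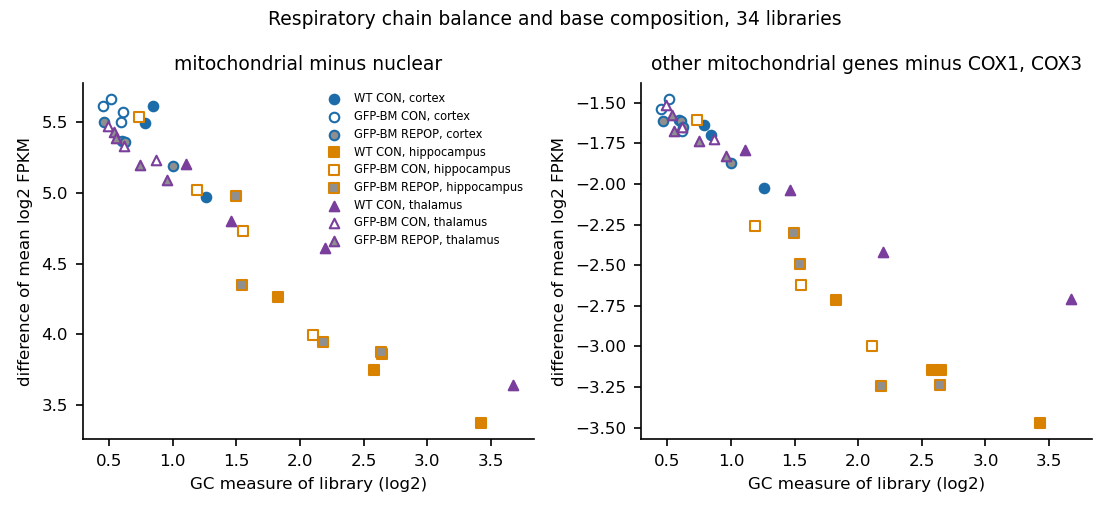
Mean log2 level of mitochondrial minus nuclear respiratory chain genes (left) and of the other 11 mitochondrial genes minus COX1 and COX3 (right) against the GC measure of each of 34 libraries, by region and treatment. Both differences fall as the GC measure rises, with Pearson r of -0.959 and -0.918.

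The treatment groups were compared within each region. Against WT CON, GFP-BM CON bears on irradiation with the graft. GFP-BM REPOP adds the inhibitor and the replacement of the myeloid cells, which cannot be told apart. The 3 comparisons of a region share libraries and are given side by side. None of the 91 genes passed in any of the 9 comparisons with limma-trend, nor with voom on the recovered reads. Of all genes tested in the cortex, 0.32% were called between GFP-BM CON and WT CON, 0.734% between GFP-BM REPOP and WT CON, and 0.0476% between the 2 GFP-BM groups. In that order the hippocampus had 0.0%, 0.0136% and 0.0272%, and the thalamus 0.0%, 0.836% and 0.0%. Among mitochondrial genes, unadjusted p was under 0.05 for 1, 0 and 3 genes for the cortex, 11, 0 and 0 for the hippocampus and 10, 8 and 0 for the thalamus, in the same order of comparisons. Among nuclear genes the numbers were 6, 8 and 1, then 4, 0 and 3, then 2, 22 and 0. The percentages above are of adjusted calls and are no measure for these counts. Wherever counts of unadjusted p are given, the share of all genes under the same threshold is not given. Such counts are therefore no result about the members.

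In the hippocampus the fitted levels of all 13 mitochondrial genes were higher in GFP-BM CON than in WT CON, with a median log2 difference of 0.88. ND5 read 739.9, 788, 1892 and 449 FPKM in GFP-BM CON against 210.1, 280.1, 437 and 315 FPKM in WT CON. The groups did not overlap, and the difference did not pass (log2 1.48, SE 0.43, adjusted p = 0.084). ND6 read 989, 1121, 2302 and 612 FPKM in GFP-BM CON, of which the lowest lay just under the highest WT CON library, 622 FPKM (log2 1.34, SE 0.40, adjusted p = 0.089). CYTB had a log2 difference of 0.86 (SE 0.27, adjusted p = 0.10) and COX1 of 0.36 (SE 0.26, adjusted p = 0.41). In 9 of 13 genes GFP-BM CON lay wholly above WT CON, as in 5.42% of all genes tested. Marker sums were set beside these values, and the groups overlapped in hippocampal, striatal, neuronal and oligodendrocyte markers. Hippocampal markers summed to 151 to 288 FPKM in GFP-BM CON and to 80.3 to 169 FPKM in WT CON, striatal ones to 104 to 147 and 63.7 to 498 FPKM, 10 neuronal markers to 2079 to 2387 and 1388 to 2466 FPKM, and 8 oligodendrocyte markers to 851 to 2377 and 630 to 1173 FPKM. Choroid plexus sums overlapped too, at 50.3 to 6371 and 34.4 to 6504 FPKM. The sums of 8 astrocyte markers did not overlap, at 1024 to 1081 FPKM in GFP-BM CON and 726 to 958 FPKM in WT CON. Those of muscle markers did not overlap either and were lower in GFP-BM CON (9.38 to 12.1 against 13.9 to 17.7 FPKM). The part of these sums in the result was not tested. The GC measure moved with the mitochondrial genes, at 1.55, 1.19, 0.74 and 2.11 in GFP-BM CON and 3.43, 2.65, 1.82 and 2.58 in WT CON. Once each library was corrected for its trends with GC content and gene length, the median of the 13 was -0.052. Without GFP-BM CON hippocampus replicate 4, 6 mitochondrial genes were called, with the share of all genes in that fit not given. The median for GFP-BM REPOP against WT CON was 0.58, with ND5 at 363, 852, 373 and 839 FPKM overlapping WT CON. The same quantity was -0.47 for REPOP minus CON within the GFP-BM mice. Without GFP-BM REPOP hippocampus replicate 1 these medians were 0.73 and -0.29, and without replicate 4 they were 0.43 and -0.68, with no call in either case.

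In the thalamus, too, the fitted levels of all 13 genes were higher in both GFP-BM groups than in WT CON. ND6 read 2325, 2462 and 2097 FPKM in GFP-BM CON and 1518, 587, 1015 and 1233 FPKM in WT CON, with no overlap and no call (log2 1.16, SE 0.27, adjusted p = 0.072). In GFP-BM REPOP it read 2020.3, 2541, 2459.9 and 1747 FPKM, again above every WT CON library (log2 1.08, SE 0.25, adjusted p = 0.061). ND5 differed by 1.31 (SE 0.33, adjusted p = 0.084) and 1.17 (SE 0.30, adjusted p = 0.075) on the log2 scale. COX1 had fitted differences of 0.11 and 0.07. In GFP-BM CON 11 of 13 genes lay wholly above WT CON, as in 14.6% of all genes, and in GFP-BM REPOP 5 of 13, as in 11.9% of all genes. Neuronal marker sums were 2217 to 2260 FPKM in GFP-BM CON, 2112 to 2303 in GFP-BM REPOP and 1896 to 2102 in WT CON. Sums of 8 microglia and macrophage markers were 130 to 143, 138 to 154 and 156 to 241 FPKM, in that order. For both lists neither GFP-BM group overlapped WT CON, and for the other marker lists both did. Their part in the mitochondrial values was not tested. The GC measure was 0.49 to 0.86 in GFP-BM CON, 0.53 to 0.96 in GFP-BM REPOP and 1.11 to 3.68 in WT CON. After the correction the medians of 0.65 and 0.46 became -0.77 and -0.77, and 5 mitochondrial genes were called lower in GFP-BM REPOP. Without WT CON thalamus replicate 1, and with no correction, 8 mitochondrial genes were called higher in GFP-BM CON and 7 in GFP-BM REPOP. The share of all genes called in that fit is not given. For REPOP minus CON within the GFP-BM mice the median was -0.10.

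In the cortex the median log2 differences of the mitochondrial genes were 0.16 between GFP-BM CON and WT CON, -0.07 between GFP-BM REPOP and WT CON, and -0.23 between the GFP-BM groups (REPOP minus CON). ND5 read 2291, 1790.3, 2174 and 1935 FPKM in GFP-BM CON and 1386, 1813, 1639 and 2096 FPKM in GFP-BM REPOP, where WT CON had 1754, 1035 and 1712. For ND5, GFP-BM CON lay wholly above WT CON and GFP-BM REPOP overlapped both, and the smallest adjusted p of a mitochondrial gene in the cortex was 0.23.

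**Figure D4:**
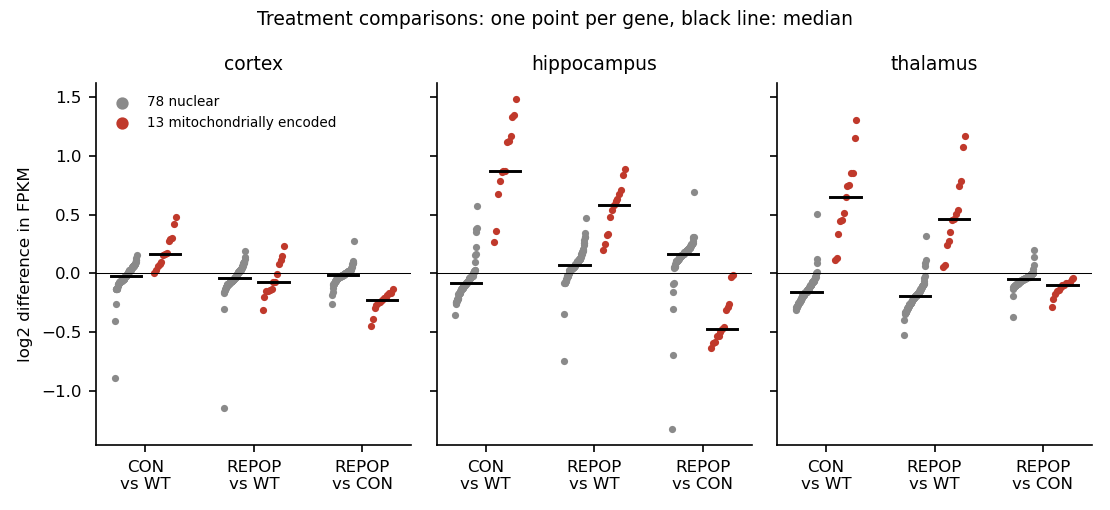
Log2 difference of each respiratory chain gene in the 9 treatment comparisons, with mitochondrially encoded genes in red, nuclear genes in grey and a line at each median. Mitochondrial medians run from -0.47 to 0.88 and nuclear medians from -0.20 to 0.17; no gene passed the test.

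Nuclear genes shifted by small amounts. The median log2 differences were -0.02, -0.04 and -0.02 for cortical libraries, -0.08, 0.07 and 0.17 for hippocampal ones and -0.16, -0.20 and -0.05 for thalamic ones, in the order used above. The largest lean was in the thalamus of GFP-BM REPOP against WT CON, where 74 of 78 had a lower fitted level, among them 36 of 36 genes of complex I. Ndufs7, an iron-sulfur subunit of complex I, came nearest to a call, at 101, 109, 106 and 100.3 FPKM in GFP-BM REPOP and 113, 170.0, 136 and 133 FPKM in WT CON. All GFP-BM REPOP libraries lay under all WT CON ones (log2 -0.39, SE 0.11, adjusted p = 0.087). Such a separation downward held for 8 nuclear genes, where 6.87% of all genes tested had it. Without WT CON thalamus replicate 1, 8 nuclear genes were called lower, with the share of all genes in that fit not given. In the cortex Ndufb6, an accessory subunit of complex I, was nearest (GFP-BM REPOP against WT CON, log2 0.19, SE 0.05, adjusted p = 0.14), and in the hippocampus 72 of 78 nuclear genes had a higher fitted level in GFP-BM REPOP than in GFP-BM CON.

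The treatment effects were also compared between regions. Over 9 such differences and 91 genes, 819 tests in all, none passed (limma-trend, smallest adjusted p = 0.35; none with voom), and 37 had an unadjusted p under 0.05. At most 0.211% of all genes tested passed in any of the 9. The larger mitochondrial difference in the hippocampus than in the cortex is therefore not shown to differ between the regions.

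A few nuclear isoforms went their own way in single libraries. Cox8b, the heart and muscle form of a complex IV subunit, varied most of all members, with an SD of 1.24 on the log2 scale. It read 31.0, 1.87, 3.74 and 1.49 FPKM in the WT CON hippocampus and 0.57, 3.70, 22.7 and 31.8 FPKM in the GFP-BM CON hippocampus, and at most 5.62 FPKM in every library of the other groups. The 3 libraries above 20 FPKM had the 3 highest summed levels of 6 choroid plexus markers, 6504, 4909 and 6371 FPKM, and all 6 markers were in the table. The remaining libraries ran from 31.5 to 1127 FPKM for that sum. Cox6b2, known as the testis form of another complex IV subunit, read 17.4, 4.99, 4.20 and 3.84 FPKM in the WT CON hippocampus and 3.62, 7.64, 8.82 and 15.4 FPKM in the GFP-BM CON hippocampus, with its peaks in the same libraries. Cox7a1, the heart form of a further subunit, was 11.0, 5.87 and 9.98 FPKM in the 3 libraries and 3.05 to 8.66 FPKM in the others, so that the middle value lay within their range. Summed levels of 5 of 6 skeletal and heart muscle markers were 13.9 to 17.7 FPKM in the WT CON hippocampus. They were 9.38 to 12.1 FPKM in the GFP-BM CON hippocampus and 18.2 to 29.4 FPKM in the WT CON cortex. The part of choroid plexus tissue in these levels was not tested.

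**Figure D5:**
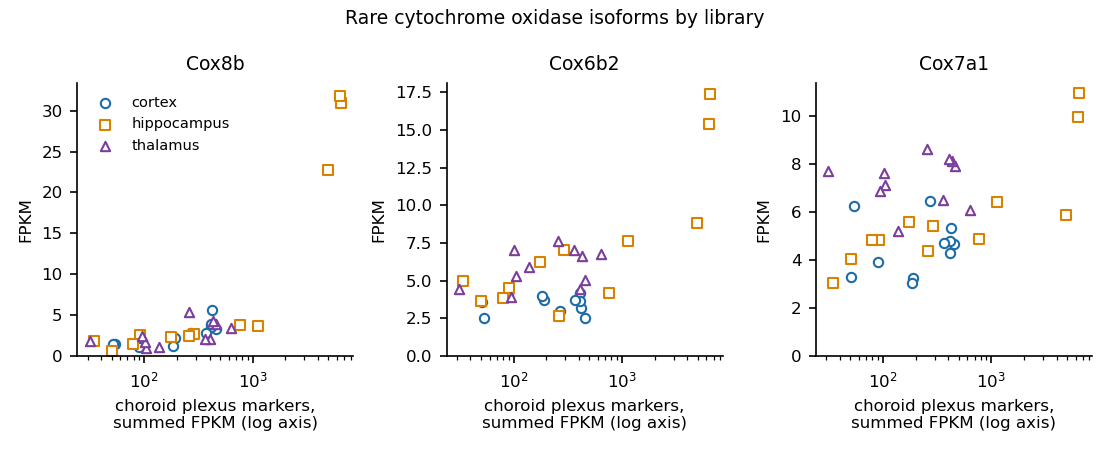
FPKM of Cox8b, Cox6b2 and Cox7a1 in each of 34 libraries against the summed FPKM of 6 choroid plexus markers (log axis). The 3 libraries at 4909 FPKM and above hold the 3 highest Cox8b levels, 22.7, 31.0 and 31.8 FPKM.

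Genes that build and serve the chain were read from fixed lists of their names. Of 45 tested assembly factors, Ndufaf2, which helps to complete complex I, was called. It was higher in the cortex (20.25 to 22.03 FPKM) than in the hippocampus (14.7 to 16.8 FPKM; log2 0.43, SE 0.11, adjusted p = 0.037) and lower in the hippocampus than in the thalamus (log2 -0.45, SE 0.10, adjusted p = 0.038). Of 30 genes of mitochondrial transcription, RNA processing and DNA maintenance, Top1mt, the mitochondrial topoisomerase, was lower in the cortex than in the thalamus (log2 -0.48, SE 0.12, adjusted p = 0.042). Of 77 mitochondrial ribosomal proteins, Mrpl54 was lower in the cortex than in the thalamus (log2 -0.52, SE 0.13, adjusted p = 0.037). Single calls in lists of this size lie at or under the share of all genes called in these region comparisons (11.1%, 6.40% and 4.10%) and are no result about the lists.

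Of 10 nuclear regulators, Ppargc1a, a coactivator that drives mitochondrial biogenesis, was higher in the cortex (5.30 to 7.61 FPKM) than in the hippocampus (0.68 to 2.37 FPKM; log2 2.17, SE 0.56, adjusted p = 0.037), which is again near the share of all genes. None of 11 other subunits and electron carriers passed in any region comparison with limma-trend or voom, and 6 of their 33 tests had an unadjusted p under 0.05. Over all lists and region comparisons limma-trend gave 5 calls and voom on the recovered reads 2. In the 9 treatment comparisons no gene of the lists passed with limma-trend or with voom, and 160 of 1566 tests had an unadjusted p under 0.05. With an unadjusted p under 0.05, the assembly factors had 3 higher and 11 lower in the thalamus of GFP-BM REPOP against WT CON, and the ribosomal proteins 0 higher and 17 lower. The median log2 difference of the ribosomal proteins there was -0.20, as for the nuclear subunits. In that comparison 11.9% of all genes tested lay wholly higher in GFP-BM REPOP and 6.87% wholly lower. The share of all genes with an unadjusted p under 0.05 is not given, so these counts are no result about the lists.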

How the data were processed

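Brains had been dissected into 3 regions and paired-end libraries made from total RNA. The authors aligned the reads with STAR to mm10, counted them with featureCounts and deposited 1 table of FPKM values from edgeR and limma; the strand setting and the annotation of the counting are not given in the sources used here. All columns of the table matched a sample (0 unmatched). Whole reads were recovered from the FPKM steps (100.0% of values within 0.01 of a whole number). The log2(FPKM + 0.1) values were fitted with limma 3.58.1 (R 4.3.3, limma-trend, two-sided, Benjamini-Hochberg over 14710 genes) after a filter of 1 FPKM in at least 3 libraries; 343 genes of other biotypes were left out. Treatments were fitted per region with 3 groups, regions in WT CON alone, and differences between regions with 9 groups. In the treatment fits p-values measure the spread between animals of a group. The main fits across regions took libraries of the same animal as independent. With animal as a block, the fitted correlation within an animal was -0.11 for the regions and -0.04 for the differences between regions. The members and lists were chosen with earlier results of these data known. The genes named with values are the 13 mitochondrial genes, a fixed list of 34 nuclear genes (33 in the table; Sdhd is not analysed here), called nuclear genes with the largest changes, and those nearest the threshold or with extreme levels, which were chosen after their values were seen. Python 3.11.15, numpy 2.4.6, pandas 2.3.3 and matplotlib 3.10.9 served for summaries and figures. Read recovery and limma were tested on simulated data.

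No 2 libraries held identical values. Regions of 1 animal share a source (animal numbers in the titles); deviations from group means correlated with a mean r of 0.105 over 32 such pairs, 19 of them over 0.1. The replicate numbers of different treatment groups belong to different animals and pair nothing. The alternatives were pseudocounts of 1 and 0.01, no low filter, other scalings, voom, no trend and 9 groups in 1 fit. Further ones were a block, a spline correction for GC content and length (94.3% of tested genes have both), and each library left out in turn. The block was the animal in the fits across regions and the title replicate number in the treatment fits. A fit without correction on the genes with a GC content was added after seeing the data. Coordinates and mitochondrial sequences are from GENCODE vM21 on mm10, and promoters from RefSeq on GRCm38.p6.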

Additional observations from a re-analysis of the deposited data

Results flagged for a closer look

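In 357 checks of a group of 4 or more libraries (51 genes and shares), 15 had 1 library separated from the others by more than Dixon's 95% critical value, where chance gives about 1 in 20. Values are FPKM and no cause was tested. Among mitochondrial genes, CYTB was 5556 in GFP-BM REPOP cortex replicate 4, with the others at 4484 to 4564, and ATP8 was 357 in GFP-BM REPOP cortex replicate 1, with the others at 432 to 445. GFP-BM REPOP hippocampus replicate 2 stood high for Ndufab1, an acyl carrier subunit of complex I (72.1, others 48.4 to 51.7), for Atp5e (431, others 236 to 260.2) and for Atp5k (282, others 199 to 205), both small subunits of complex V. Sdha was 132 in GFP-BM REPOP hippocampus replicate 4 (others 151 to 154), and Sdhb, the iron-sulfur subunit of complex II, was 102 in GFP-BM REPOP thalamus replicate 3 (others 95.7 to 96.3).

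GFP-BM REPOP cortex replicate 3 stood low for Uqcrc1 (133, others near 138), for Uqcrb of complex III (48.1, others 61.3 to 63.8) and for Atp5g1, a gene of the c subunit of complex V (45.8, others 50.4 to 50.8). GFP-BM CON cortex replicate 1 stood high for Cox5a (174, others near 154) and Cox5b (310.5, others 243 to 250.0), nuclear subunits of complex IV. Atp5d, the delta subunit of complex V, was 137 in WT CON thalamus replicate 2 (others 85.6 to 91.1), the library with the highest GC measure, 3.68. WT CON hippocampus replicate 1, which had the highest choroid plexus marker sum, stood high for Cox8b (31.0, others 1.49 to 3.74) and Cox6b2 (17.4, others 3.84 to 4.99).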

How the results depend on the processing

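The regional calls rested on 3 or 4 libraries a group, and the part of the libraries' GC preference in them was not tested. The correction for GC content and length was fitted over genes of 31.0% to 72.8% GC content. The mitochondrial genes, at 31.9% to 41.1%, lie toward the low end of that range. The tenth of tested genes with the lowest GC content, 1379 genes outside the chain, lies at or under 41.6%. Beside the calls of the report (mitochondrial 10, 0 and 4, nuclear 1, 0 and 0, for cortex against hippocampus, cortex against thalamus and hippocampus against thalamus, and 0 in every treatment comparison), other settings gave these counts of called genes, with the share of all genes called in brackets. With no filter on low values hippocampus against thalamus had 2 mitochondrial calls (3.73%). Quantile normalization gave 6 mitochondrial calls for cortex against hippocampus (19.8%), 16 nuclear ones for cortex against thalamus (14.1%) and 1 nuclear one for hippocampus against thalamus (5.10%). Rescaling without mitochondrial genes gave 2 nuclear calls for cortex against hippocampus (1 higher, 1 lower; 12.2%) and 7 for cortex against thalamus (9.78%). Fitting the 9 groups together gave 11 mitochondrial and 1 nuclear for GFP-BM CON against WT CON in the hippocampus (19.4%), 2 mitochondrial in the thalamus (9.16%), 2 mitochondrial and 5 nuclear for GFP-BM REPOP against WT CON in the thalamus (13.3%), 6 nuclear for cortex against hippocampus (38.3%), 4 mitochondrial and 16 nuclear for cortex against thalamus (31.6%), and 10 mitochondrial for hippocampus against thalamus (18.8%). With animal as a block, hippocampus against thalamus had 2 mitochondrial calls (2.2%), and this setting changed no other count of calls by over 1.5 times. For the treatment comparisons the setting added the title replicate number instead, which pairs no animals, so it cannot check those results. The GC and length correction gave 2 mitochondrial (both lower) and 1 nuclear for GFP-BM REPOP against WT CON in the cortex (0.951%), 5 mitochondrial (all lower) in the thalamus (0.915%), and 3 mitochondrial (2 higher, 1 lower) and 4 nuclear for cortex against hippocampus (14.5%). The cause of these changes was not tested.

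With that correction the mitochondrial medians were -0.34, -0.36 and -0.045 in the cortex (in the order GFP-BM CON minus WT CON, REPOP minus WT CON, REPOP minus GFP-BM CON), -0.052, -0.020 and 0.10 in the hippocampus, -0.77 for both comparisons with WT CON in the thalamus, 0.087 for cortex against hippocampus, -0.28 for cortex against thalamus and -0.53 for hippocampus against thalamus. Quantile normalization gave -0.00 for REPOP minus GFP-BM CON in the cortex, 0.39 and 0.17 for the comparisons with WT CON in the hippocampus, 0.52 for cortex against hippocampus and -0.29 for hippocampus against thalamus. The mitochondrial median changed sign under the correction in 8 of 12 comparisons and the nuclear one in 2, and under quantile normalization in 0. Of the 13 mitochondrial genes, in the same order of comparisons, 12, 3 and 2 changed sign under the correction in the cortex, 9, 8 and 9 in the hippocampus and 11, 11 and 9 in the thalamus, and 4, 11 and 2 between regions. Among them were ND6 for GFP-BM CON against WT CON in the hippocampus (-0.05), CYTB (-0.50) and ND6 (-0.52) in the thalamus, CYTB (-0.46) and ND6 (-0.40) for GFP-BM REPOP against WT CON in the thalamus, and COX1 (-0.62), COX3 (-0.87), ND1 (-0.068) and ND3 (-1.03) for cortex against hippocampus. COX3 also did so under quantile normalization (-0.32).

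Leaving out 1 library at a time gave 0 to 6 mitochondrial calls for GFP-BM CON against WT CON in the hippocampus and 0 to 8 in the thalamus, and 0 to 7 mitochondrial and 0 to 8 nuclear for GFP-BM REPOP against WT CON in the thalamus. It gave 0 to 11 mitochondrial and 0 to 4 nuclear for cortex against hippocampus, 0 to 1 and 0 to 2 for cortex against thalamus, and 1 to 10 and 0 to 2 for hippocampus against thalamus. The 11 and the 10 came without WT CON thalamus replicate 2. The shares of all genes called in these fits are not given, so the ranges are no result about the members.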
